A study of Mus musculus with 2 samples.

Results

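The astrocyte genes described here are 39 genes chosen by symbol, out of 55536 genes measured in mouse hippocampus, together with the transcripts of Gfap. All 39 symbols matched 1 gene each in the deposited gene tables. The study measured total RNA, with ribosomal RNA reduced, from whole hippocampal tissue of male B6CASTF1/J mice (first-generation hybrids of C57BL/6J and CAST/EiJ) at 14 days of age. It holds 1 group, made of biological replicates 1 and 2, each labelled with 3 males and 300 ng of starting RNA. Nothing in the labels says whether the RNA of those males was combined. The animals carried no stated treatment or engineered allele, so there were no conditions to compare. What the libraries allow is a description of levels, of ratios between genes, and of how far the replicates differed.

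Astrocytes are the glial cells that take up glutamate and potassium released by neurons, line blood vessels with water-channel-rich endfeet, couple to one another through gap junctions, and secrete proteins that act on synapses. In the mouse hippocampus they multiply, spread their processes and join into a network during the first weeks after birth, while synapses form. The genes are ordered below by what their products do: junction, water and ion transport proteins, cytoskeletal and calcium-binding proteins, receptors and signalling proteins, transcription regulators, metabolic proteins, secreted proteins that act on synapses and matrix, other secreted proteins, and metal-binding proteins.

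Sequences are shown first for the genes whose transcripts or loci the results turn on. Gfap, the intermediate filament protein of astrocytes, lies at chr11:102887336-102900912 on the minus strand of mm10. Its transcripts Gfap-201 and Gfap-202 share the junctions and coding parts of exons 1 to 7 and then end differently, with 430 and 428 codons. The coding end of Gfap-202 is 125 bases in exon 8, at chr11:102891396-102891520. It is given 5′ to 3′ on the transcript from GENCODE M21, with the stop codon in capitals, because it is the coding stretch that sets this transcript apart from Gfap-201.
Gfap-202 coding end: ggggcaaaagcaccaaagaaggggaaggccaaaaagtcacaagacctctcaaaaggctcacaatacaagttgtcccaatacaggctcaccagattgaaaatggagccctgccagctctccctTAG

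The metallothionein genes Mt3, Mt2 and Mt1 lie in that order on the plus strand of chromosome 8, with 18.5 kb between Mt3 and Mt2 and 5.51 kb between Mt2 and Mt1. They are shown because Mt1 and Mt2 passed the test between replicates given further on and Mt3 did not, with counting intervals that do not overlap. Each sequence is the 250 bases before the RefSeq start (GRCm38.p6, plus strand), at chr8:94178839-94179088 for Mt1, chr8:94172368-94172617 for Mt2 and chr8:94152357-94152606 for Mt3. Capitals mark matches on either strand to TGCACNC or TGCGCNC, the core of the metal response element bound by the zinc-sensing factor MTF-1. The 2 patterns differ at a fixed base, so no match can belong to both.
Mt1: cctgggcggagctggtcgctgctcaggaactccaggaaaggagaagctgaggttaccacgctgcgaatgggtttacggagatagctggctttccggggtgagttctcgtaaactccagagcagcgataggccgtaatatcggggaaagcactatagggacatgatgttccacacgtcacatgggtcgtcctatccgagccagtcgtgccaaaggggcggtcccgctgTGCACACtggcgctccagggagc
Mt2: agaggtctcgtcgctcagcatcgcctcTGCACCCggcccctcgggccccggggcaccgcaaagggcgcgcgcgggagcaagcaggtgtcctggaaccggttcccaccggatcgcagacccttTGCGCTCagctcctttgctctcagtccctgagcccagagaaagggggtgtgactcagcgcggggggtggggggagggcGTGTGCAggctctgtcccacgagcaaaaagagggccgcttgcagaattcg
Mt3: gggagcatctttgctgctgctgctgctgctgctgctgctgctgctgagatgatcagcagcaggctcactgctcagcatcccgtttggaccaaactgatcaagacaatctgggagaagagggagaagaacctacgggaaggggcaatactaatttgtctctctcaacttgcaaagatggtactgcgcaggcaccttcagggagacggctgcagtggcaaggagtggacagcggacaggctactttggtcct
The Mt1 window held 1 match, the Mt2 window 3 and the Mt3 window 0. These counts hold for the printed windows alone, and bases outside them were not searched. GENCODE M21 places the starts at other bases, chr8:94179082 for Mt1 and chr8:94172664 for Mt2. The counts therefore do not compare whole promoters. Across 27025 RefSeq windows of the same length, 21.3% held at least 1 match and 5.19% held 2 or more. A promoter window was found for 32 of the 39 astrocyte genes, and 5 of these held a match. A match is a run of letters and was not tested as a binding site. All printed sequences, that of Gfap-202 included, are those of the reference genome. The CAST/EiJ alleles that these hybrids also carry were not read.

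Replicate 1 held 29144848 gene counts and replicate 2 held 31755544, spike-ins left out. The astrocyte genes took 186266 of them in replicate 1, or 0.639% (exact 95% interval 0.636 to 0.642), and 206404 in replicate 2, or 0.650% (0.647 to 0.653). These intervals cover counting error alone. Every member had between 109 and 33144 counts on average, and the deposited posterior SD of the count was 0 for all 39, so no reads were shared with another gene in the authors' gene assignment. Markers of hippocampal neurons, chosen after seeing the data to check the tissue label, were all detected (5 of 5), among them Prox1 of dentate granule cells at TPM 43.9 and 63.0 in replicates 1 and 2. The glutamate transporter Slc1a2 and glutamine synthetase Glul, used here as further astrocyte markers and not members, were present at mean TPMs of 1033 and 694. Bulk RNA does not show which cells these transcripts came from.

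All 39 astrocyte genes were detected, at a TPM (a level scaled for transcript length and library size) of at least 1 in both libraries, a level reached by 14865 genes in all. Their median level was TPM 60.1 ± 3.51 (SD of the library medians, n = 2), beside 15.2 for the 12924 detected protein-coding genes. Of the 39, 32 lay above that protein-coding median and 14 above its 90th percentile. The span was wide, from Chrdl1 at a mean TPM of 1.57 to Cst3 at 1187, a 758-fold range. When ranked by mean TPM, 24 of 38 neighbouring pairs overlapped in their library values, so the order is firm between groups of genes and not from one gene to the next. Because 4 genes made up 53.7% of the members' summed TPM in replicate 1 and 57.6% in replicate 2, that sum mainly follows Cst3, Apoe, Sparcl1 and Mt3.

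**Figure D1:**
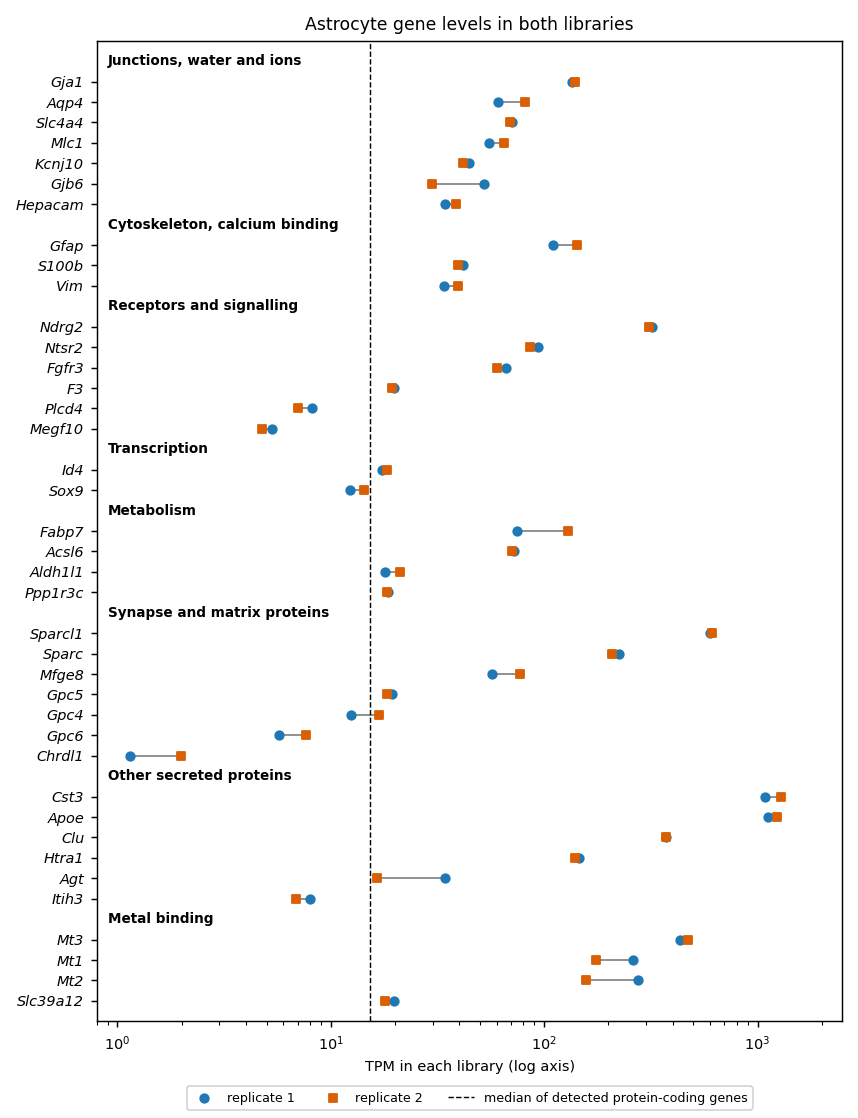
TPM of the 39 astrocyte genes (log axis) in replicate 1 (blue circles) and replicate 2 (orange squares), by role, with the line joining a gene's 2 libraries. Secreted proteins reach the highest levels, most genes lie right of the dashed protein-coding median of 15.2, and Agt, Gjb6, Mt1, Mt2, Fabp7 and Chrdl1 have the longest lines.

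Among junction, water and ion transport proteins the gap-junction connexin Gja1 was highest. Gja1 had TPM 135 in replicate 1 and 139 in replicate 2. The second astrocyte connexin, Gjb6, had TPM 52.0 and 29.8. Gja1 was thus above Gjb6 in both libraries, by 1.80 ± 0.59 in log2 TPM (SD, n = 2), or 3.48-fold. The libraries nearly coincided for Gja1 and lay apart for Gjb6, which sets the spread of their ratio. The endfoot water channel Aqp4 had TPM 61.0 and 81.5. The inward-rectifying potassium channel Kcnj10, which clears potassium, had TPM 44.3 and 41.5. Aqp4 exceeded Kcnj10 by 0.72 ± 0.36 in log2 TPM, which is under 2 SD and did not count as a difference. The sodium bicarbonate cotransporter Slc4a4 had TPM 70.8 and 69.4. Mlc1, a membrane protein mutated in a leukoencephalopathy, had TPM 55.4 and 64.8, and its partner Hepacam, an adhesion protein, 34.3 and 38.6. Mlc1 was above Hepacam by 0.72 ± 0.040 in log2 TPM, one of the steadiest ratios among the pairs.

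The filament protein Gfap had TPM 110 and 143. Vim, which encodes the filament protein vimentin, had 34.0 and 39.3, and the calcium-binding protein S100b had 41.7 and 39.3. Gfap was 3.43-fold above Vim (1.78 ± 0.12 in log2 TPM) and 3.10-fold above S100b (1.63 ± 0.33), so it led this group in each library. Gfap was also 6.44-fold above the folate enzyme Aldh1l1, often used as a general astrocyte marker (2.69 ± 0.10). Most Gfap signal was assigned to Gfap-201: 90.7% ± 0.82 of the gene's TPM (SD, n = 2). Gfap-202, the transcript with the printed end, took 9.07% ± 0.76. In the second kind of transcript table, whose columns follow kallisto, the shares were 85.6% ± 0.78 and 14.4% ± 0.78. Gfap-203 had 1.77 and 1.76 counts in the first table and 0 in the second. Both tables place Gfap-202 well below Gfap-201, and they differ in its share by more than the spread between libraries.

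**Figure D2:**
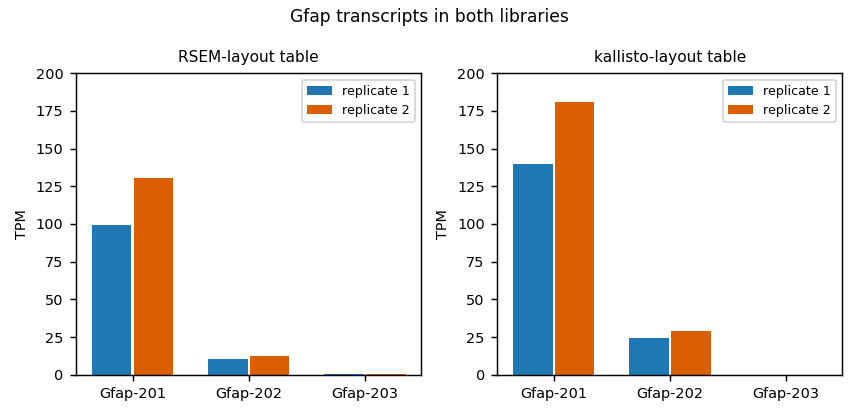
TPM of the 3 Gfap transcripts in replicates 1 (blue) and 2 (orange), with 1 bar for each library, in the table with RSEM columns (left) and the table with kallisto columns (right). Gfap-201 stands at 99.2 and 131 on the left and 140 and 181 on the right, and Gfap-202 at 10.6 and 12.2 on the left and 24.5 and 29.0 on the right.

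Receptors and signalling proteins ranged over more than an order of magnitude. Ndrg2, a cytoplasmic protein of the NDRG family, was highest with TPM 320 and 310. The neurotensin receptor Ntsr2 had TPM 93.4 and 85.7. The growth factor receptor Fgfr3 had TPM 66.5 and 60.3. These 3 genes were all above the protein-coding median in both libraries. Tissue factor, F3, had TPM 19.8 and 19.4. The phospholipase Plcd4 had TPM 8.12 and 6.99. Megf10, an engulfment receptor with which astrocytes take up synaptic material, had TPM 5.28 and 4.77. The transcription regulators were modest: Sox9, which specifies glia, had TPM 12.3 and 14.3, and Id4, an inhibitor of basic helix-loop-helix factors, had 17.3 and 18.4. Sox9 and Id4 did not differ by the limit used (-0.43 ± 0.097 in log2 TPM, under 0.5 in size).

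Among metabolic genes the fatty-acid-binding protein Fabp7, also abundant in radial glia, had the highest mean and the widest gap, at TPM 74.5 and 129. The acyl-CoA synthetase Acsl6 had TPM 72.3 and 70.8. Aldh1l1 had TPM 17.99 and 21.14, which put it 3.67-fold below Acsl6 (-1.88 ± 0.19 in log2 TPM). Its TPM was higher in replicate 2, while its scaled counts (1059 and 1096 before scaling) were not. Their log2 ratio was -0.09 and did not pass the test given further on. Ppp1r3c, which brings a protein phosphatase to glycogen, had TPM 18.6 and 18.3. Fabp7 and Gfap did not differ by the limit used (-0.36 ± 0.30 in log2 TPM), although Fabp7 is the gene whose libraries lay further apart.

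Secreted proteins that act on synapses and matrix spanned almost the whole range. Sparcl1 (hevin), which promotes synapse formation, had TPM 599 and 612. Sparc, which counters hevin, had TPM 224 and 207. Sparcl1 exceeded Sparc 2.81-fold (1.49 ± 0.099 in log2 TPM). Of the glypicans, cell-surface proteoglycans that can be shed, Gpc4 had TPM 12.5 and 16.9, Gpc5 had 19.4 and 18.4, and Gpc6 had 5.69 and 7.63. Gpc4 and Gpc6 are both known to recruit AMPA receptors, and Gpc4 was 2.20-fold above Gpc6 with the smallest spread of any pair in gene-table TPM (1.14 ± 0.0080). In the kallisto-column table the same pair was at 1.03 ± 0.12, so that small spread was particular to the gene table. Gpc5 was above Gpc6 by 1.52 ± 0.35, while Gpc4 and Gpc5 did not differ by the limit used (-0.38 ± 0.36). Chrdl1, a secreted antagonist of bone morphogenetic proteins with a known role in synapse maturation, was lowest of all 39, with TPM 1.14 and 1.99 from 88 and 130 counts. Mfge8, a bridging protein in phagocytosis, had TPM 57.1 and 76.7.

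The other secreted proteins held both the highest levels and the least reproducible member. Apoe, the main lipid carrier of the brain, had TPM 1123 and 1241. The protease inhibitor Cst3 (cystatin C) had TPM 1088 and 1286. Apoe and Cst3 changed places between the libraries in gene-table TPM, and their ratio was 0.00 ± 0.068 in log2 TPM. In the kallisto-column table Cst3 was above Apoe in both libraries. Apoe over Cst3 was there at -0.29 ± 0.069, under 0.5 in size. Clusterin, Clu, another lipoprotein component, had TPM 372 in both. Apoe was 3.17-fold above Clu (1.67 ± 0.10). The serine protease Htra1 had TPM 146 and 140, and Itih3, a hyaluronan-binding inter-alpha-trypsin inhibitor chain, had 7.98 and 6.83. Agt, angiotensinogen, had TPM 34.4 and 16.5. Mfge8 and Agt, which mark astrocytes of different brain regions, had a log2 TPM ratio of 0.73 in replicate 1 and 2.21 in replicate 2, too unequal to count as a difference.

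All 3 metallothioneins were among the more abundant members, and they lie in the cluster printed above. Mt3, the brain-enriched form, had TPM 433 and 474. Mt1 had TPM 262 and 174. Mt2 had TPM 274 and 158. Mt1 and Mt2 had a log2 TPM ratio of 0.04 ± 0.15, which did not count as a difference. Mt3 was above Mt1 by 1.08 ± 0.51, a difference by the limit used. Mt3 was above Mt2 by 1.12 ± 0.66, which was under 2 SD. The zinc transporter Slc39a12 had TPM 19.8 and 17.9. Over all 20 pairs compared, 12 differed by the limit of 0.5 and 2 SD in gene-table TPM and 15 in the kallisto-column table, with the same call in 17. The 3 pairs whose call turned were Aqp4 over Kcnj10 (0.97 ± 0.39), Mt3 over Mt2 (1.51 ± 0.65) and Mfge8 over Agt (2.21 ± 1.06), which differed in the kallisto-column table alone. With 2 libraries the smallest two-sided p of an exact sign-flip test is 0.5, so the ratios are given by size and spread alone.

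Differences between the replicates were then tested gene by gene on counts, with an exact two-sided binomial test at TMM-scaled library sizes and Benjamini-Hochberg adjustment over 18322 genes. This test compares the 2 libraries beyond counting noise and not any conditions. In bulk RNA, fewer astrocytes, less RNA in each astrocyte and RNA of the same genes from other cells cannot be told apart. Of the 39 astrocyte genes, 22 (56.4%) were called at an adjusted p under 0.05, against 22.5% of all genes tested. The share called was larger among deeply counted genes. It was 28.5% of the 12426 genes with at least the lowest member's count (16.5% higher in replicate 2 and 12.1% in replicate 1). Of 3049 genes with at least the members' median count, 49.6% were called, beside 14 of the 20 members at or above it. Of the 22, 9 were higher in replicate 2 (background 11.9%) and 13 in replicate 1 (background 10.7%). The median log2 ratio, replicate 2 over replicate 1, was -0.07 over the members and -0.003 over all genes.

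**Figure D3:**
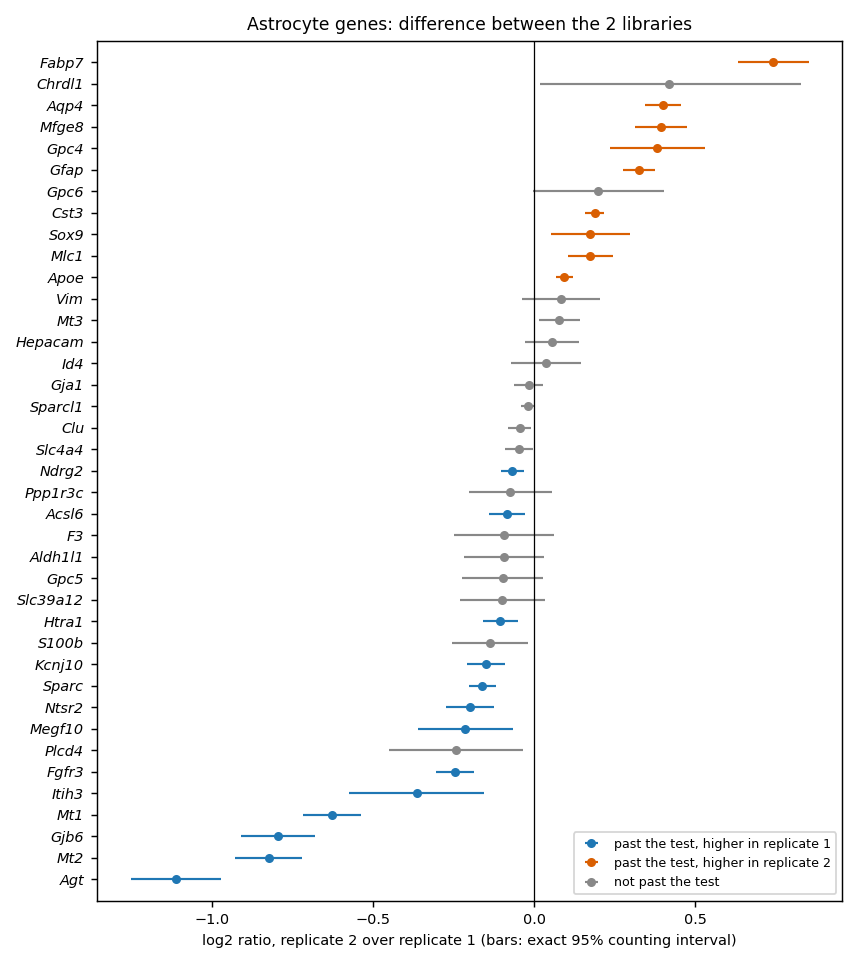
Log2 ratio of scaled counts, replicate 2 over replicate 1, for each astrocyte gene, with exact 95% counting intervals as bars. The 9 orange genes passed the binomial test as higher in replicate 2, the 13 blue genes as higher in replicate 1, and the 17 grey genes did not pass. Agt lies lowest at -1.11 and Fabp7 highest at 0.74.

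Most of these differences were small. The median size of the log2 ratio was 0.16 over the members, 0.14 over all genes and 0.10 over the 12426 genes with at least the count of the lowest member. The ratio exceeded 0.5 in size for 5 members, or 12.8%, beside 14.1% of all genes and 3.51% of genes with at least the lowest member's count. Those 5 were Agt, Mt2, Gjb6 and Mt1, higher in replicate 1, and Fabp7, higher in replicate 2. Agt, at chr8:124556534-124569706, had 1244 counts in replicate 1 and 636 in replicate 2. Its log2 ratio was -1.11 (95% counting interval -1.25 to -0.97), with an adjusted p of 3.24e-57 in the exact binomial test. Mt2 had 1966 and 1228 counts and a log2 ratio of -0.82 (-0.93 to -0.72). Its neighbour Mt1 had 2395 and 1714 counts and a log2 ratio of -0.63 (-0.72 to -0.54). Mt3, in the same cluster, had 3792 and 4423 counts and did not pass (log2 ratio 0.08, adjusted p = 0.061, exact binomial test). Gjb6, at chr14:57123303-57133611, had 1598 and 1018 counts and a log2 ratio of -0.79 (-0.91 to -0.68). Gja1, the other connexin, did not pass, at -0.02 (-0.06 to 0.03). Fabp7, at chr10:57784881-57788450, had 1062 and 1962 counts and a log2 ratio of 0.74 (0.63 to 0.85).

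The binomial test allows for counting noise only. The edgeR estimate of 0.1004 cited next comes from the same differences between replicates that are then tested. It is not independent of them, and 1 library on each side gives no independent estimate. Genes past the test at 0.1 are therefore those with large differences beside the spread in these libraries. Whether they exceed variation between animals cannot be decided. With edgeR's exact test at a biological coefficient of variation of 0.1, close to the 0.1004 that edgeR estimated over these libraries, 3 members passed, against 0.95% of all genes (0.284% higher in replicate 2 and 0.666% in replicate 1). They were Agt (adjusted p = 9.34e-05), Mt2 (0.0150) and Gjb6 (0.0248) in edgeR's exact test, and all 3 were higher in replicate 1. Fabp7 missed narrowly (adjusted p = 0.0508, edgeR's exact test). With the coefficient set to 0.05, 8 members passed, against 4.12% of all genes (1.48% higher in replicate 2 and 2.64% in replicate 1): Agt, Gjb6, Mt2 and Mt1 as higher in replicate 1, and Fabp7, Aqp4, Mfge8 and Gfap as higher in replicate 2. The other calls of the binomial test, such as Cst3 at 0.19, Apoe at 0.09 and Ndrg2 at -0.07 in log2 ratio, did not pass at either coefficient. Scaling to the spike-ins moved the median of all genes to 0.11. It adds the same amount to every gene's log2 ratio. On that scale Ndrg2, Acsl6 and Htra1, called as higher in replicate 1 under TMM, had ratios above 0. Relative to the moved median they were -0.07, -0.08 and -0.10.

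By role, the direction was mixed in most groups. All 6 receptors and signalling genes had a negative log2 ratio under TMM scaling, of which 4 passed the binomial test (Fgfr3 -0.25, Megf10 -0.21, Ntsr2 -0.20 and Ndrg2 -0.07). Spike-in scaling put F3 and Ndrg2 above 0, while relative to the median of all genes on that scale they were at -0.09 and -0.07. Of the 7 junction, water and ion transport genes, Aqp4 (0.40) and Mlc1 (0.17) were higher in replicate 2 and Gjb6 and Kcnj10 (-0.15) in replicate 1. Of the 7 synapse and matrix genes, Mfge8 (0.39) and Gpc4 (0.38) were higher in replicate 2 and Sparc (-0.16) in replicate 1. Gfap (0.33) was the one cytoskeletal gene to pass and Sox9 (0.17) the one transcription regulator; Id4 was at 0.04 and did not pass. Among metabolic genes, Acsl6 (-0.08) was higher in replicate 1 where Fabp7 of the same group was higher in replicate 2. Itih3 (-0.36) and Htra1 (-0.11) were higher in replicate 1 beside Agt, while Cst3 and Apoe of the same group were higher in replicate 2.

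Other lists of cell type markers were read for the same libraries, as counts with no test over a list. Beside their counts, 11.9% of all genes tested were higher in replicate 2 and 10.7% in replicate 1. Among genes with at least the lowest member's count, these shares were 16.5% and 12.1%. Of 39 further astrocyte genes, 13 were higher in replicate 2 and 11 in replicate 1, and the list's median log2 ratio was 0.07. All but Lgr6 were detected. Tnc, a matrix protein of immature astrocytes, had the largest ratio of that list at 0.82. Slc1a2 was at -0.05 and Glul at -0.16. As in the 39 members, no single direction held. Genes of reactive astrocytes were low, with a median TPM of 2.03 and 4 of 11 under a mean TPM of 1 (Lcn2, Timp1, Cxcl10 and Steap4). The acute-phase gene Serpina3n was the highest of them at TPM 22.8 and 19.7. Of the 8 tested, Serpina3n (-0.26) and Aspg (-1.23, from 43 and 20 counts) were higher in replicate 1, the direction of Mt1 and Mt2, and 0 were higher in replicate 2. Of the 6 not called, Cd44 (0.36) and S1pr3 (0.28) had ratios above 0. The list leaves out the filament genes Gfap and Vim, which are members. Gfap (0.33) was higher in replicate 2, and Vim (0.08) did not pass. The list's median log2 ratio was -0.26. The part of this list in the metallothionein result was not tested.

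Markers of other brain regions and cell types were read beside Agt. The shares over all genes tested were again 10.7% higher in replicate 1 and 11.9% in replicate 2. Of the list marking astrocytes outside the telencephalon (Agt, Slc6a9, Slc6a11, Irx2 and Irx5), 2 of the 4 tested were higher in replicate 1, Agt and the glycine transporter Slc6a9 (-0.39). The list's summed TPM, Agt included, was 114 and 92.3, of which Agt was 34.4 and 16.5. All 4 tested genes had a negative ratio, with a median of -0.75 that lies between Agt (-1.11) and Slc6a9. Slc6a11 was at -0.07 (TPM 62.1 and 61.4) and did not pass. Of the list's defining transcription factors, Irx2 had 15 and 6 counts (-1.40, not past the test) and Irx5 had 2 counts in each library. Since Agt is itself a member, this list is not independent of the results above. All 4 tested markers of thalamic neurons were higher in replicate 1, with a summed TPM of 49.2 and 27.7. They were Prkcd (-0.44), Tcf7l2 (-1.33), Lef1 (-0.45) and Tnnt1 (-2.74), and the defining marker Gbx2 had 2 and 0 counts. Of single myelin genes, given without a list count, Mbp had TPM 813 and 439 (log2 ratio -0.90), Mobp 155 and 78.1 (-1.18), Cnp 149 and 103 (-0.61) and Mag 133 and 69.1 (-0.999), and each passed the binomial test as higher in replicate 1. Choroid plexus markers, led by Ttr at TPM 85.9 and 45.8, had 3 of 5 tested genes higher in replicate 1 (Ttr, Otx2 and Clic6), with a summed TPM of 90.9 and 48.6. These changes go with the higher Agt, Mt1, Mt2 and Gjb6 of replicate 1, and their part in those results was not tested. Radial glia and stem cell genes had a summed TPM of 68.0 and 83.5, with Hopx (0.50) and Nes (0.35) higher in replicate 2, as Fabp7 was, Lpar1 (-0.55) higher in replicate 1, and the other 4 of 7 not past the test. Their part in the Fabp7 result was not tested.

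**Figure D4:**
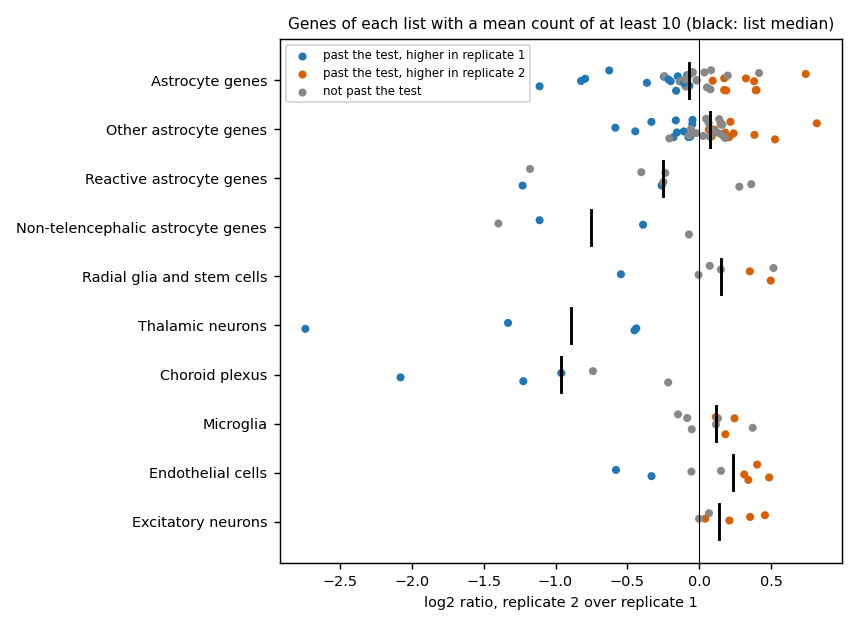
Log2 ratio, replicate 2 over replicate 1, of the genes of 10 lists with a mean count of at least 10 (points, coloured by the binomial test) and the list's median (black bar). The members and the other astrocyte genes lie on both sides of 0, with medians of -0.07 and 0.07. Reactive astrocyte genes have a median of -0.26. The 4 tested genes of non-telencephalic astrocytes lie left of 0, from Slc6a11 at -0.07 to Irx2 at -1.40, with a median of -0.75.

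The level given to an astrocyte gene depended on the kind of table. The kallisto-column TPM was higher than the gene-table TPM for all 39, by a median of 1.62-fold, beside 1.57-fold over detected protein-coding genes. The ratio ran from 1.34 for Gjb6 to 3.11 for Slc39a12. It was above 2 for 7 members (17.9%), beside 12.2% of detected protein-coding genes. These were Slc39a12, Mt3 (2.77), Fgfr3 (2.55), Clu (2.52), Mt1 (2.43), Mfge8 (2.27) and Mt2 (2.12). The order of the genes was nearly the same in both tables (Spearman's rho 0.989 across the 39 genes, which share the same 2 libraries). The distance between genes was not: Apoe exceeded Clu by 1.67 in log2 TPM in the gene table and by 0.90 ± 0.077 in the kallisto-column table. The direction of the replicate difference was the same in both tables for 37 of the 39, the exceptions being Gja1 and Sparcl1, which lay near 0 in both.

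**Figure D5:**
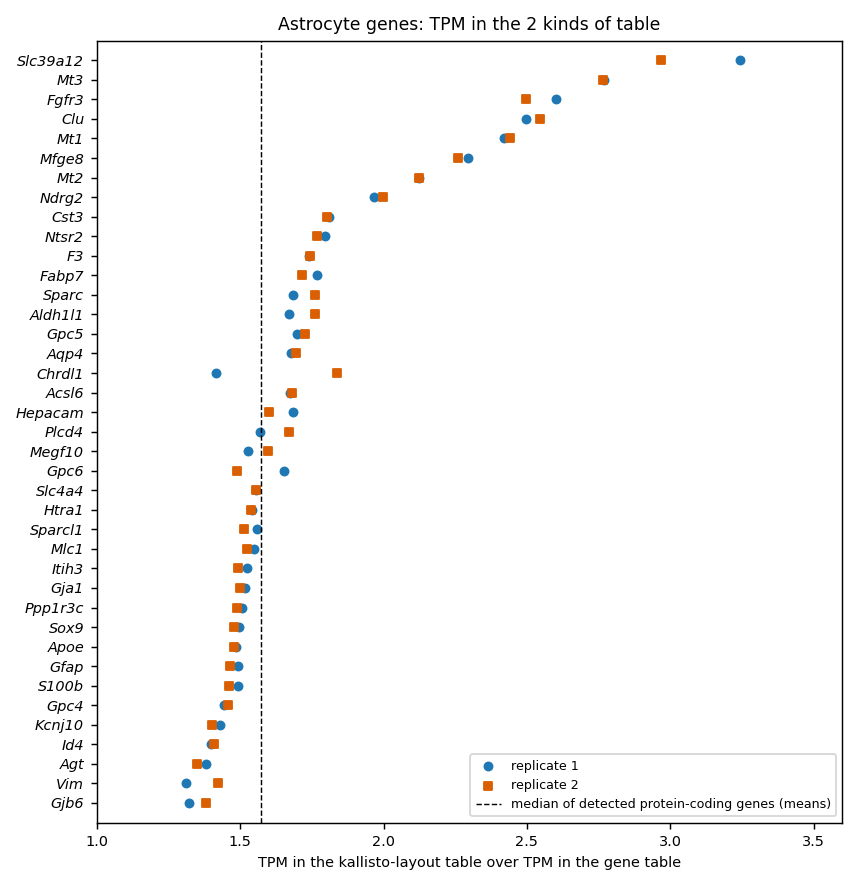
Ratio of the kallisto-column TPM to the gene-table TPM for each astrocyte gene in replicate 1 (blue circles) and replicate 2 (orange squares). The dashed line marks the median of detected protein-coding genes at 1.57, and Slc39a12, Mt3, Fgfr3, Clu, Mt1, Mfge8 and Mt2 lie above 2.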

How the data were processed

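Expected counts per gene, deposited by the authors without normalisation, were rounded for tests. TPM values were deposited by the authors over all entries, spike-ins included. Per the file headers, the tables also hold each transcript's percent of its gene's TPM and the posterior SD of each count. The kallisto-column tables, as deposited, hold TPM and estimated counts. Coordinates are on mm10 and genes from GENCODE M21, per the labels and deposited notes. The aligner, quantifiers and versions were not given in the sources used here.

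Genes were called detected at TPM 1 in both libraries. Tests used genes with a mean count of at least 10, a prior count of 0.5 for log2 ratios, TMM factors over those genes (edgeR 4.0.16, R 4.3.3), and an exact two-sided binomial test with Benjamini-Hochberg adjustment at 0.05. That use of the filtered genes for TMM was chosen after results with all genes had been seen, and the alternative is given with the other settings. The quasi-likelihood test needs replicates on each side and could not be used. The other tests were edgeR's exact test at fixed coefficients of variation of 0.1 and 0.05. Pairs of genes differed where the log2 TPM ratio had 1 sign, a mean above 0.5 and above 2 SD. The binomial test was run on simulated counts with counting noise alone and 200 known changes. Such counts hold no variation between animals, so they cannot show how the test behaves with it. The members, marker lists and 20 pairs were chosen with earlier results of these data known. The text names all 39 members, all Gfap transcripts above 1% of the gene's TPM and, of the other lists it describes, some of the up to 4 genes of highest TPM, of the genes past the test and of those under TPM 1; Gfap-203 and Slc6a11 are named to complete their sets. Some lists and a transcript sequence are not reported here. Of the 15 other lists, those for excitatory neurons (4 of 6 tested genes higher in replicate 2, 0 in replicate 1), interneurons (3 and 1 of 7), oligodendrocyte precursors (1 and 2 of 6), microglia (3 and 0 of 9), endothelial cells (4 and 2 of 8), mural cells (2 and 0 of 6), meningeal fibroblasts (1 and 2 of 6), ependymal cells (0 and 0 of 3) and hippocampal neurons (3 and 0 of 5) are not described further. Beside those list counts, 11.9% of all genes tested were higher in replicate 2 and 10.7% in replicate 1. Other software was DESeq2 1.42.0, Python 3.11.15, numpy 2.4.6, scipy 1.17.1, pandas 2.3.3 and matplotlib 3.10.9.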

Additional observations from a re-analysis of the deposited data

How the results depend on the processing

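All 39 members were detected in each library alone and in the kallisto-column table, and 37 at TPM 5. The median TPM was 134 when rescaled to nuclear protein-coding genes, 92.1 in the kallisto-column table, and 55.4 to 60.3 with 1 library left out. The Gfap-201 share was 85.6% in the kallisto-column table. Members higher in replicate 2 numbered 20 under spike-in scaling, 0 in edgeR's exact test at 0.1 (1 at an unadjusted p under 0.05, 9 in the binomial test) and 4 at 0.05. Members higher in replicate 1 numbered 6, 3 and 4 under the same settings. Of all genes tested, 35.6% were called under spike-in scaling, 0.95% in edgeR's exact test at 0.1 and 4.12% at 0.05. The members' median log2 ratio became 0.045 under spike-in scaling. There 76.9% of called members were higher in replicate 2, against 40.9% under TMM, and 84.7% of called genes, against 52.7%. Mt3 also passed the binomial test with library totals, spike-in totals, the kallisto-column table and, added after seeing the data, TMM over all genes. In the kallisto-column table Chrdl1 passed too and Ndrg2, Htra1 and Acsl6 did not, giving 11 members higher in replicate 2 and 10 in replicate 1. Of all genes tested in that table, 24.4% were called. In edgeR's exact test with TMM over all genes, Fabp7 also passed at 0.1, giving 1 member higher in replicate 2 and 3 in replicate 1, with 4 and 4 at 0.05. The shares of all genes tested that were called there were 0.944% at 0.1 and 4.17% at 0.05.

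Signs reversed under spike-in scaling for Acsl6 (0.029), Aldh1l1 (0.019), Clu (0.069), F3 (0.019), Gja1 (0.10), Gpc5 (0.015), Htra1 (0.0077), Ndrg2 (0.045), Ppp1r3c (0.040), Slc39a12 (0.015), Slc4a4 (0.066) and Sparcl1 (0.094). Gja1 and Sparcl1 also reversed with library totals (0.0023 and 0.0011) and in the kallisto-column table (0.028 and 0.016). Agt, Mt2 and Gjb6 were called the same way under all 11 alternatives. DESeq2 size factors and no count filter changed no member's call. Why spike-in scaling moved the median was not tested. With 1 library on each side, differences between animals and between preparations cannot be told apart.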

Other observations

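Genes overlapping the members bear on how reads were assigned. Of the 39, 13 are overlapped by 19 other annotated genes, 17 of them on the opposite strand. Only 4 of the 19 were detected, Dip2a beside S100b, Fgfr2 beside Htra1, and Zfp142 and Usp37 beside Plcd4; all were picked after their values were seen. Opposite Sparcl1, Gm26703 had 49 counts in each library, and opposite Mt2, Gm45774 had 7 and 3, far under the counts of the members themselves. No source used here says whether counting used strand.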
